A study of Homo sapiens with 6 samples.

Results

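The small RNAs described here were the box H/ACA small nucleolar RNAs (snoRNAs) and the small Cajal body-specific RNAs (scaRNAs) of HEK293, a human embryonic kidney cell line. They were chosen by name alone, as every gene of the deposited comparison table whose symbol began with SNORA or SCARNA followed by a number. This gave 129 names, of which 128 had a transcript in the assemblies of the single libraries, out of 24166 genes in all. The 128 were made up of 105 H/ACA snoRNAs and 23 scaRNAs. The remaining name, SNORA11D, had no transcript of its own in the libraries and was not described. Total RNA depleted of ribosomal RNA was sequenced in 3 libraries of control cells grown at 37°C and in 3 of cells held for 30 minutes at 45°C in a bath of water. The paper places the measurement 30 minutes after heat shock. All 6 libraries were of the same unmodified cell line, and the heat was the only treatment given in the labels. The labels call the 3 libraries of a group replicates without saying whether they came from separate cultures, so p-values measure the spread between these libraries. Genes known to be active in HEK293 were above 0 in all 6, with 85.3 to 929 FPKM for VIM, 1.44 to 8.92 for NEFM and 0.320 to 4.26 for PAX2. PTPRC, checked as a gene not expected in these cells, had 0 to 0.344 FPKM, so the lowest PAX2 value does not show activity. The heat shock gene HSPA1B had 6.59 to 9.55 FPKM in the controls against 86.5, 99.9 and 22.9 after heat shock.

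H/ACA snoRNAs are guides. Each folds into hairpins that pair with a target RNA and hold 1 of its uridines in place for conversion to pseudouridine by dyskerin, and most of the known targets are in ribosomal RNA. scaRNAs do the same kind of work in the Cajal body, a compartment of the nucleus, where the targets are the small nuclear RNAs of the spliceosome; some are of the H/ACA type, some of the box C/D type that guides methylation, and some carry both. In human cells nearly all of these RNAs are cut out of the introns of longer host transcripts, and the free ends of the intron are trimmed up to the bound proteins.

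The sequence features that give the class its name were looked up in the reference first, because the members had been taken by symbol. The sequences shown are those on which the comparisons below turn: the pair of RNAs called by the test, the 3 further RNAs whose libraries did not overlap between the groups, the RNA with the highest level, and a pair of genes with the same sequence. They were read from GRCh37, and SNORA59A and SNORA59B (chr1:12567300-12567451 and chr17:19460873-19461024, both plus strand) are printed once each to show that they were identical over all 152 bases. SCARNA11 lay at chr12:6690639-6690775 on the minus strand, SNORA30 at chr16:30721858-30721986 on the plus strand, SNORA33 at chr6:133138358-133138490 on the plus strand, SNORA69 at chrX:118921316-118921447 on the minus strand, SNORA71A at chr20:37055949-37056086 on the minus strand and SNORA76 at chr17:62223699-62223831 on the plus strand. Capitals mark the ACA that stands 3 bases before the 3′ end and each match to ANANNA, the letters of the H box, in the central 50% of the RNA; overlapping matches run together.
SCARNA11: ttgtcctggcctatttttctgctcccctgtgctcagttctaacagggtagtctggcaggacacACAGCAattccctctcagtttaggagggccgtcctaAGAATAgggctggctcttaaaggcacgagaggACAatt
SNORA30: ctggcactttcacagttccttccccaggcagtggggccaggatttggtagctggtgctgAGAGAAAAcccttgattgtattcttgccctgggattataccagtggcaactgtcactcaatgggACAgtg
SNORA33: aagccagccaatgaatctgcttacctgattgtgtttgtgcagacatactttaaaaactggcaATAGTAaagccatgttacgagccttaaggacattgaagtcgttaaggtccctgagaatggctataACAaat
SNORA69: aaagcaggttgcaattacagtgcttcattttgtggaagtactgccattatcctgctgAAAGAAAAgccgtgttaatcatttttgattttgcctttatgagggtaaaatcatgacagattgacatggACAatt
SNORA71A: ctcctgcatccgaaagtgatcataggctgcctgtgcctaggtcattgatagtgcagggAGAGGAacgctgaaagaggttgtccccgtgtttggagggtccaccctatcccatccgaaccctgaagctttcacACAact
SNORA76: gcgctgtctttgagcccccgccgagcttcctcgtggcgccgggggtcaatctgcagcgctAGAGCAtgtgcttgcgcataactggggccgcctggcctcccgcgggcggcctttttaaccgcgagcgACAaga
SNORA59A: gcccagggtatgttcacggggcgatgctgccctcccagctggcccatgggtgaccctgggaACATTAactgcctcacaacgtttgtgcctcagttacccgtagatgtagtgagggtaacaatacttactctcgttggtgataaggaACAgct
SNORA59B: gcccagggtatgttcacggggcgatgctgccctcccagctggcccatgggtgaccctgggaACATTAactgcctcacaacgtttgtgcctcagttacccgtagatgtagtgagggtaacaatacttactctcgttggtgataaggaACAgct

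On the strand of the RNA, an ACA exactly 3 bases before the 3′ end was found in 98 of the 128 members (76.6%), against 0.758% of 264 transcripts of box C/D snoRNAs, the other large class. It was found in 80.0% of the H/ACA snoRNAs and in 60.9% of the scaRNAs. The scaRNAs divided by length: all 14 of 125 to 187 nucleotides carried it and none of the 9 of 266 to 421 nucleotides did. Those 9 were SCARNA2, SCARNA5, SCARNA6, SCARNA7, SCARNA9, SCARNA9L, SCARNA10, SCARNA12 and SCARNA17. ANANNA was found in the central 50% of 97.7% of the members, but also of 68.9% of the box C/D transcripts. The letters TGAG, which are like those of the box that holds scaRNAs in the Cajal body, were in 69.6% of the scaRNAs, 42.9% of the H/ACA snoRNAs and 87.1% of the box C/D transcripts. The ACA at this distance was also missing from 21 of the 105 H/ACA snoRNAs, and SCARNA12 had an ACA within its last 10 bases, so the letters alone do not sort the members into types.

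H/ACA snoRNAs had a median length of 134 nucleotides, from 121 (SNORA32) to 250, and scaRNAs of 144, from 125 to 421 (SCARNA17). The shortest after SNORA32 were SNORA26 and SNORA54, and the longest after SCARNA17 were SCARNA2 and SCARNA9. In GENCODE, 126 of the 128 lay inside a gene on the same strand, in 99 hosts. Of the 126, 103 were in protein-coding genes and 23 in long non-coding RNA genes. They lay wholly in introns in 70 cases, and 56 overlapped an exon of at least 1 host transcript. The values of these 56 may hold fragments of the host transcript, which was not tested. Ribosomal protein genes formed 14 of the hosts and held 17 members. TAF1D, which codes for a subunit of a factor for RNA polymerase I, held 6, and SNHG17, a non-coding host gene, held SNORA71A to SNORA71D.

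SNORA59A and SNORA59B cannot be told apart by reads that lie within them. Besides these, 5 pairs differed but were at least 90% identical, among them SNORA7A and SNORA7B (2 differences, 98.6%) and SCARNA9 and SCARNA9L (93.2%). Whether reads separated the members of these 5 pairs was not tested. SCARNA3, SCARNA16, SNORA34, SNORA36A, SNORA36B, SNORA36C, SNORA81 and SNORA84 also held the mature sequence of a microRNA listed by RefSeq, such as miR-664a in SNORA36B and miR-1291 in SNORA34.

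The deposited value of a transcript in a library is an FPKM, the number of fragments (read pairs or reads from the same molecule) scaled to the effective length of the transcript and to the mapped fragments of the library. Cufflinks, the assembler used by the authors, also wrote an interval for each value. The fragment number behind a value was worked out here as the square of 2 times the value divided by the distance to the upper end of its interval. For the annotated transcripts of the members, 306 of the 326 values above 0 (93.9%) came out within 0.05 of a whole number. The sources used here do not document this relation, so every fragment number given below is inferred from the whole numbers it returned.

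The fragments were few. A total of 134 values (41.1%) rested on 1 fragment and 225 (69.0%) on at most 3, with a median of 2. Only 24 values rested on 10 or more, and the highest was 81, for SCARNA17 in heat shock replicate 1. The 20 values without a whole number belonged to SCARNA9, SNORA36A, SNORA36B, SNORA59A, SNORA59B and SNORA84. The plot of members by fragment number shows how the listed RNAs of each library divided.

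**Figure D1:**
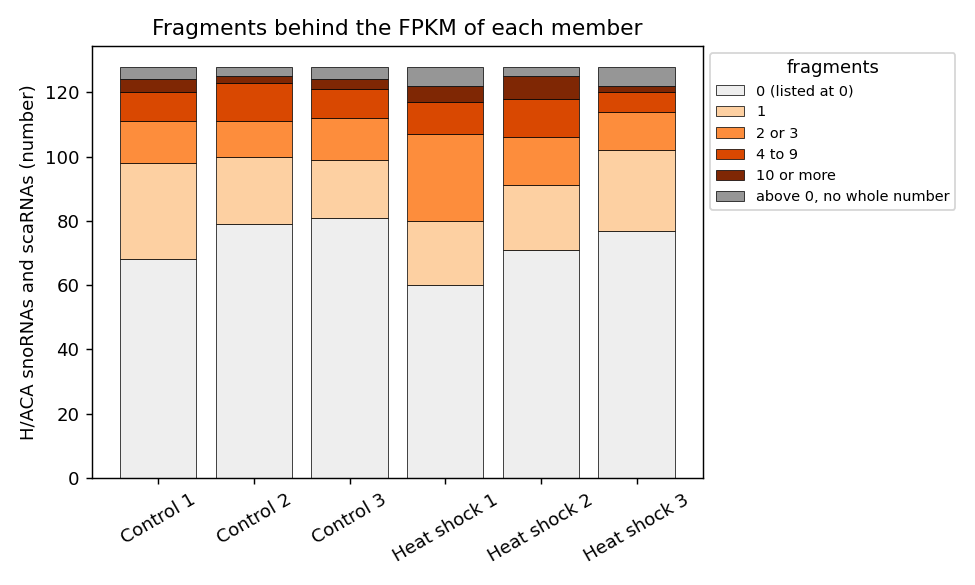
Number of H/ACA snoRNAs and scaRNAs (y axis, of 128) in each of the 6 libraries (x axis), stacked by the fragments behind their FPKM. RNAs listed at 0 are the largest class in every library (60 to 81), and RNAs with 1 fragment number 18 to 30.

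The same fragment is worth very different FPKM values in different members. In heat shock replicate 1, 1 fragment gave 17.4 FPKM to an RNA of 121 nucleotides, 11.1 to one of 137 and 0.400 to one of 421. It also differed between libraries, since the depth relative to control replicate 3, the shallowest, was 2.03 in control replicate 1, 1.82 in control replicate 2, and 1.23, 1.31 and 1.56 in heat shock libraries 1 to 3. For a length of 137 nucleotides, 1 fragment was 6.74, 7.54 and 13.7 FPKM in control libraries 1 to 3 and 11.1, 10.5 and 8.78 in heat shock libraries 1 to 3. The curves of this value against length do not cross, and the annotated transcript of a short RNA had no low FPKM above 0. Lower values of short members, such as 2.80 FPKM for SNORA9 in control replicate 1 and 1.32 for SNORA80B in heat shock replicate 3, came from assembled transcripts grouped with the member, which had no fragments on its annotated transcript there.

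**Figure D2:**
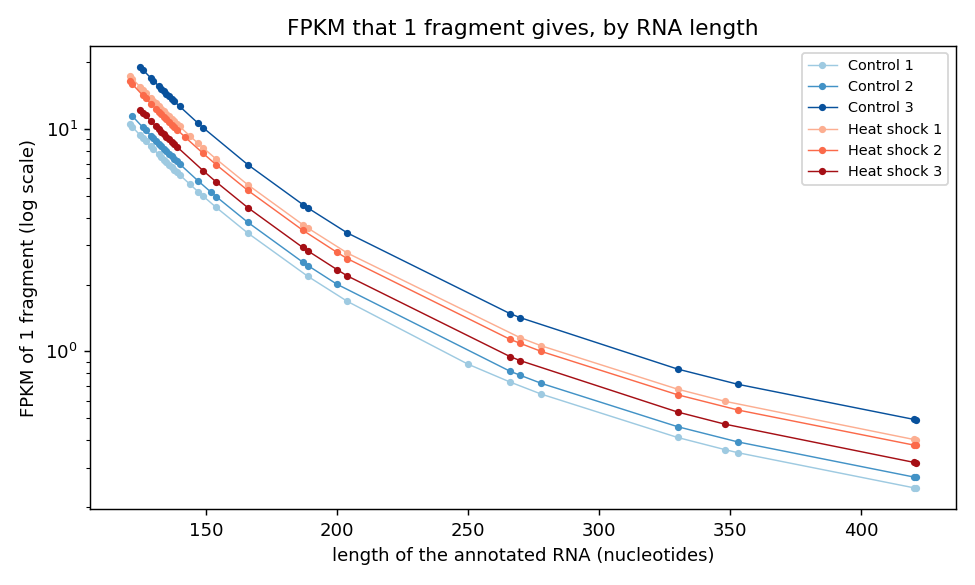
FPKM that 1 fragment gave (y axis, log scale) against the length of the annotated RNA (x axis, nucleotides), with 1 line per library. Control replicate 3 is highest and control replicate 1 lowest at every length with a value in all 6 libraries, and at 420 nucleotides all lines are under 1 FPKM.

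Of the 128 members, 13 were above 0 in all 6 libraries, 69 in 2 to 5, 18 in 1 and 28 (21.9%) in none. Box C/D snoRNAs, which are shorter (median 78 nucleotides), were listed far less: 83.8% of 253 were at 0 in all 6 libraries and 0.791% above 0 in all. Among the members, none of the 28 of at most 130 nucleotides was above 0 in all libraries, against 38.5% of the 13 of 200 nucleotides or more, whose values above 0 had a median of 5 fragments. A value of 0 means that the transcript was not given any abundance and does not show that the RNA was absent. Its place could also be covered by another transcript: in heat shock replicate 2, SNORA31 was listed at 0 while an assembled transcript of 1380 nucleotides without a strand covered it at 201 FPKM.

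Cufflinks had put 9 members under a shared heading with another annotated gene in every library, and 6 of these (SNORA7A, SNORA17, SNORA34, SNORA43, SNORA61 and SNORA81) were at 0 in all 6. Of the 84 that were never grouped in this way, 18 were at 0 in all. By place in the host, 17 of the 70 intronic members and 11 of the 56 on a host exon were at 0 in all libraries.

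The control libraries listed 60, 49 and 47 members and the heat shock libraries 68, 57 and 51, so the groups overlapped. Their summed levels were 987, 652 and 1504 FPKM in control libraries 1 to 3 and 2315, 2102 and 668 in heat shock libraries 1 to 3. Heat shock replicate 3 lay with control replicate 2 at the low end. In fragments divided by relative depth, the sums were 128, 67.7 and 165 in the controls against 288, 269 and 76.5 after heat shock. This order of the libraries was not particular to small RNAs. A size factor over 983 genes above 10 FPKM in all libraries was 0.938, 0.434 and 0.957 in the controls against 2.13, 2.32 and 0.487 after heat shock. The part of this scale in the results was not tested. In RNA from whole cultures, fewer cells giving an RNA cannot be told apart from less of it per cell.

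The question put to each member was whether the heat shocked cultures held more or less of it than the controls. Most members gave no answer beyond the spread of the libraries. SCARNA11 was called higher after heat shock and SNORA30 lower. Both calls rested on 1 or 2 fragments per library in 1 group against 0 in every library of the other. Both were lost when no minimum FPKM was set. The test was limma on log2(FPKM + 1), which understates the change of low values, with a call at a Benjamini-Hochberg adjusted p under 0.05 and more than 2-fold. A mean of at least 1 FPKM was met by 98 members, among 13025 genes tested. Over all these genes, 0.0154% were called higher and 0.00768% lower.

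SCARNA11, 137 nucleotides in an intron of CHD4, was listed at 0 in all 3 control libraries and at 11.1, 10.5 and 17.6 FPKM in heat shock libraries 1 to 3. The groups did not overlap. These levels stood for 1, 1 and 2 fragments. Its log2 fold change was 3.78 (SE 0.45, limma adjusted p = 0.00968), and the exact permutation test, two-sided, gave p = 0.1, the smallest that 3 libraries against 3 allow. With the control group set at a floor of 3 fragments, the ratio of heat shock to control per unit of depth was 1.58. The 4 heat shock fragments were taken as exact, so this ratio is not a lower limit of the change. The authors' pooled values were 0 FPKM for control and 29.2 FPKM for heat shock.

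SNORA30, 129 nucleotides in an intron of SRCAP, was the mirror image, with 8.37, 9.36 and 17.0 FPKM in control libraries 1 to 3 and 0 in every heat shock library. Each control value was 1 fragment, and the differences among the 3 were those of depth. The log2 fold change was -3.59 (SE 0.46, limma adjusted p = 0.0136; exact permutation p = 0.1). No fold per depth was computed, since 3 fragments in the controls equal the floor. The authors' pooled values were 15.7 FPKM for control and 0 for heat shock.

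Both RNAs passed the minimum level only through the group in which they were above 0, and 3 libraries at 0 have no spread. Without a minimum level the adjusted p in limma was 0.208 for SCARNA11 and 0.270 for SNORA30, with the same log2 fold changes. With median-of-ratios size factors the adjusted p was 0.398 and 0.0518, at log2 fold changes of 3.57 and -3.77, and without control replicate 2 it was 0.0591 and 0.0588, at 3.78 and -3.70. In these settings the sizes stayed close to those reported while the calls were lost. With TPM the log2 fold change was 5.29 for SCARNA11, which lost its call, and -5.81 for SNORA30, which kept it (adjusted p = 0.0496). With a pseudocount of 0.1 both calls were kept, at -6.80 for SNORA30 and at more than the TPM value for SCARNA11. The sizes thus depended on the pseudocount and the scale, so no single value gives the size of either change. The hosts, both genes of chromatin remodelling enzymes, were not called. CHD4 had 17.6, 14.4 and 28.1 FPKM in the controls against 22.4, 51.6 and 1.27 after heat shock, and SRCAP had 5.23, 6.5 and 0.882 FPKM in the controls against 12.8, 10.4 and 1.21 after heat shock. In both hosts the groups overlapped, with a log2 fold change of -0.53 (SE 1.04) for CHD4 and 0.66 (SE 0.77) for SRCAP.

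In all, 4 of the 98 members tested (4.08%) had every heat shock library above every control library, where the share over all genes was 3.71%. The opposite order was found for SNORA30 alone (1.02%), against 2.26% of all genes. These shares were near the background. Besides SCARNA11, the 4 were SNORA33, SNORA69 and SNORA71A.

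SNORA33, in an intron of RPS12, a protein gene of the small ribosomal subunit, had 7.5, 8.39 and 15.2 FPKM in control libraries 1 to 3 and 61.9, 46.7 and 19.5 in heat shock libraries 1 to 3. It was the only one of the 4 with a fragment in each library, 1 in every control and 5, 4 and 2 after heat shock. Per unit of depth the ratio of the summed fragments, 11 to 3, was 4.34 with an exact 95% interval from 1.15 to 24.2, which covers counting error only. The log2 fold change was 1.86 (SE 0.79, limma adjusted p = 0.71), so it was not called. RPS12 itself had a log2 fold change of 0.08 (SE 0.74).

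SNORA69, on an exon of RPL39, a protein gene of the large subunit, was at 7.71, 0 and 0 FPKM in the controls against 12.7, 12 and 10.0 after heat shock. All 4 values above 0 were 1 fragment. Control replicate 1 lay below the heat shock libraries with the same number of fragments, since 1 fragment is worth the least FPKM in this deepest library. The ratio of 3 fragments to 1 per unit of depth was 3.55, with an interval from 0.285 to 186.

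SNORA71A, on an exon of SNHG17, was at 6.57, 7.35 and 0 FPKM in the controls against 10.8, 10.2 and 17.1 after heat shock. These values stood for 1, 1 and 0 fragments against 1, 1 and 2. The ratio was 2.37, with an interval from 0.339 to 26.2. Here too, 4 of the 5 values above 0 stood for the same number of fragments, and their order in FPKM was that of the FPKM of 1 fragment. Its host SNHG17 was listed at 0, 7.74 and 25.1 FPKM in the controls against 93.9, 157 and 24.1 after heat shock. The host groups overlapped narrowly and the log2 fold change was 3.56 (SE 1.15, limma adjusted p = 0.71).

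At an unadjusted p under 0.05 in limma and more than 2-fold, 11 members were higher and 7 lower, against 2.06% and 1.6% of all genes tested. The sets included SNORA11, SNORA11B and SNORA11E, related copies that were listed at 0 in every control, and SNORA31 and SCARNA21 among the lower ones. Like SCARNA11 and SNORA30, the RNAs SNORA11, SNORA11B, SNORA11E, SNORA41 and SCARNA21 were at 0 throughout 1 group. They passed the minimum level only through the other group, so their p-values are no support for a change. SNORA31 was at 0 in heat shock replicates 2 and 3, and in replicate 2 an assembled transcript covered it at 201 FPKM. Its lower level is therefore uncertain. SNORA11 was at 39.2, 12.3 and 0 FPKM in heat shock libraries 1 to 3, on 3, 1 and 0 fragments, and SNORA11E at 29.2, 27.6 and 0 on 2, 2 and 0. Heat shock replicate 3 was at 0 for both, whereas SNORA11B was at 0, 13.8 and 23.1 FPKM in heat shock libraries 1 to 3, on 0, 1 and 2 fragments. With the floor on the control group the ratio per unit of depth was 1.58 for both SNORA11 and SNORA11E, which is not a lower limit. SCARNA21 was at 6.57, 0 and 40.0 FPKM in the controls, on 1, 0 and 3 fragments, and at 0 after heat shock. With the floor on the heat shock group its ratio of control to heat shock was 1.13, again not a lower limit. The authors' pooled values went the other way for SCARNA21, at 22.5 FPKM for control and 29.1 FPKM for heat shock, and were 0 in both groups for SNORA11E, so the deposited table and the libraries differ for these RNAs.

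Listing in 1 group alone was common among the members with few fragments. There were 10 members above 0 in control libraries and in no heat shock library, and 15 the other way round. Within a group the same was seen: 58 members were at 0 in 1 control library and above 5 FPKM in another, and 60 among the heat shock libraries. Only 24 members were above 0 in all 3 controls and 28 in all 3 heat shock libraries.

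The members above 0 in every library can be compared without a 0 in either group. SNORA76 was the highest of them in FPKM, at 345, 117 and 472 in control libraries 1 to 3 and at 643, 467 and 107 in heat shock libraries 1 to 3. It lies on an exon of SNHG25, a non-coding host. These levels were 46, 14 and 31 fragments in the controls against 52, 40 and 11 after heat shock. The lowest library of each group was nearly the same and the groups overlapped, with a log2 fold change of 0.25 (SE 0.98, limma adjusted p = 0.891).

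SCARNA17 had the most fragments of all, 68, 11 and 18 in the controls against 81, 71 and 13 after heat shock. Because it is 421 nucleotides long, these came to only 16.5, 2.98 and 8.86 FPKM in the controls against 32.4, 26.8 and 4.10 after heat shock. Replicates 1 and 2 of the heat shock group lay above every control and replicate 3 below 2 of them. The log2 fold change was 0.93 (SE 0.88, limma adjusted p = 0.71).

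The same shape returned in 3 snoRNAs that overlap an exon of a translation gene. Fragments of the host transcript may be counted in their values, which was not tested. The shape was also that of the 3 hosts and of the size factor over abundant genes. SNORA70, in RPL10, had 64.0, 23.8 and 43.3 FPKM in the controls against 82.1, 155 and 37.0 after heat shock. SNORA10, in RPS2, had 30.0, 16.8 and 61.0 FPKM in the controls against 99.0, 140 and 9.76 after heat shock. SNORA63, in EIF4A2, the gene of a helicase of translation initiation, had 7.11, 7.95 and 57.8 FPKM in the controls against 70.4, 66.4 and 18.5 after heat shock. In all 3 RNAs heat shock replicates 1 and 2 were above every control, and replicate 3 fell among or below the controls. Their log2 fold changes were 0.93 (SE 0.92), 0.72 (SE 1.08) and 1.49 (SE 0.99), and none was called.

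SNORA67, on an exon of EIF4A1, and SCARNA1, in an intron of PPP1R8, stood out in heat shock replicate 2 alone. SNORA67 had 33.7, 30.2 and 13.7 FPKM in the controls against 22.2, 94.5 and 26.3 after heat shock. SCARNA1 had 20.5, 11.4 and 6.93 FPKM in the controls against 11.2, 79.6 and 4.44 after heat shock. Both groups overlapped in each, and the log2 fold changes were 0.64 (SE 0.89) and 0.45 (SE 0.97). Without that library the change of SCARNA1 was -0.65.

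**Figure D3:**
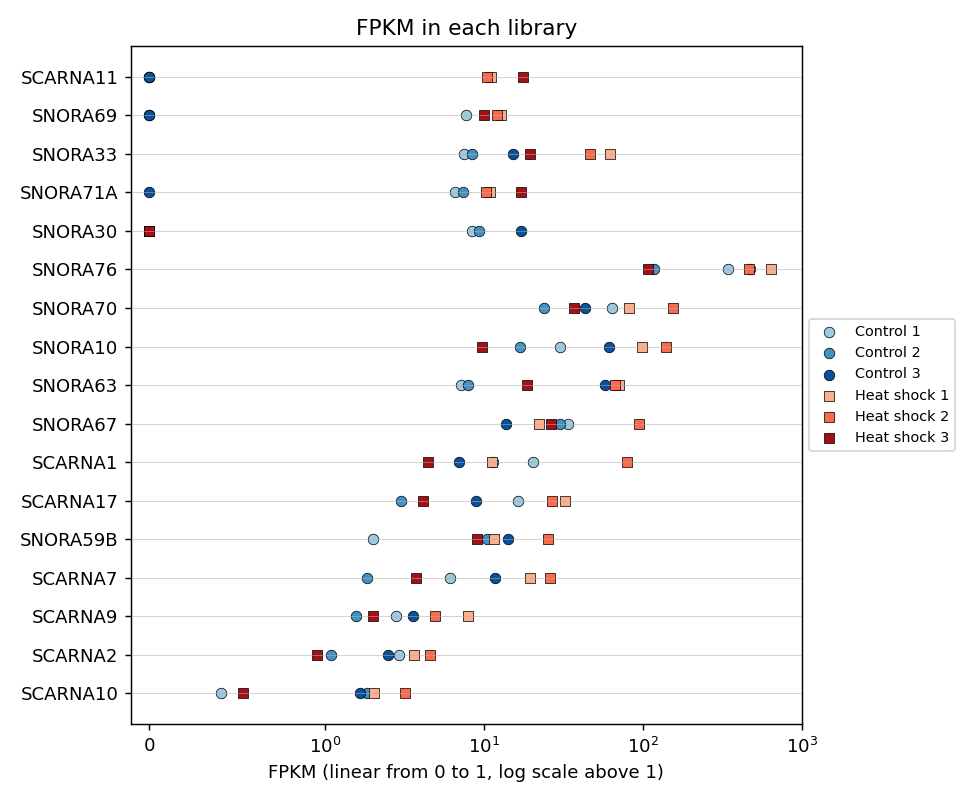
FPKM (x axis, linear from 0 to 1 and on a log scale above) of 17 members in each library, with circles for control and squares for heat shock. The upper 5 members, from SCARNA11 to SNORA30, are those without overlap between the groups, and in the others, which were above 0 in all 6 libraries, heat shock replicate 3 lies among or below the controls.

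Some long scaRNAs had the same order. SCARNA7 had 6.15, 1.83 and 11.7 FPKM in the controls against 19.6, 26.2 and 3.73 after heat shock, on 4 to 41 fragments, with a log2 fold change of 1.12 (SE 0.82). SCARNA9 ranged from 1.57 to 7.96 FPKM, SCARNA2 from 0.951 to 4.55 and SCARNA10 from 0.410 to 3.19 over the 6 libraries, with log2 fold changes of 0.61 (SE 0.54), 0.27 (SE 0.52) and 0.29 (SE 0.53). SCARNA10 had only 7 fragments in the controls and 9 after heat shock. SCARNA12 differed, at 0, 3.12 and 11.3 FPKM in the controls against 17.3, 9.78 and 7.27 after heat shock. Its heat shock replicate 2 lay below control replicate 3, and the log2 fold change was 1.67 (SE 0.81). None of them was called.

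SCARNA5 and SCARNA6 share the host ATG16L1, an autophagy gene. SCARNA5 had 5.14, 2.15 and 0 FPKM in the controls against 16.9, 8.0 and 0 after heat shock. SCARNA6 had 4.37, 1.63 and 8.88 FPKM in the controls against 0, 3.40 and 4.74 after heat shock. The groups overlapped in both RNAs, whose log2 fold changes were 1.02 (SE 0.93) and -0.82 (SE 0.69), and the difference between them was not tested.

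Among the shorter scaRNAs, SCARNA1 had 10 fragments in the controls and 18 after heat shock, the most of them. SCARNA16 followed, with 0, 12.6 and 32.1 FPKM in the controls against 14.9, 10.5 and 11.7 after heat shock, on 12 fragments in the controls and 11 after heat shock. SCARNA22 was at 76.2 FPKM in control replicate 3, on 4 fragments, and at no more than 15.5 FPKM elsewhere. SCARNA18 was at 44.5 FPKM in that library, on 3 fragments, and otherwise above 0 only in heat shock replicate 2. SCARNA3, SCARNA4, SCARNA8, SCARNA14 and SCARNA23 had at most 3 fragments each over the 6 libraries, SCARNA9L had 6, and SCARNA15, SCARNA20 and SCARNA27 were at 0 throughout. Most short scaRNAs were therefore measured on very few fragments.

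**Figure D4:**
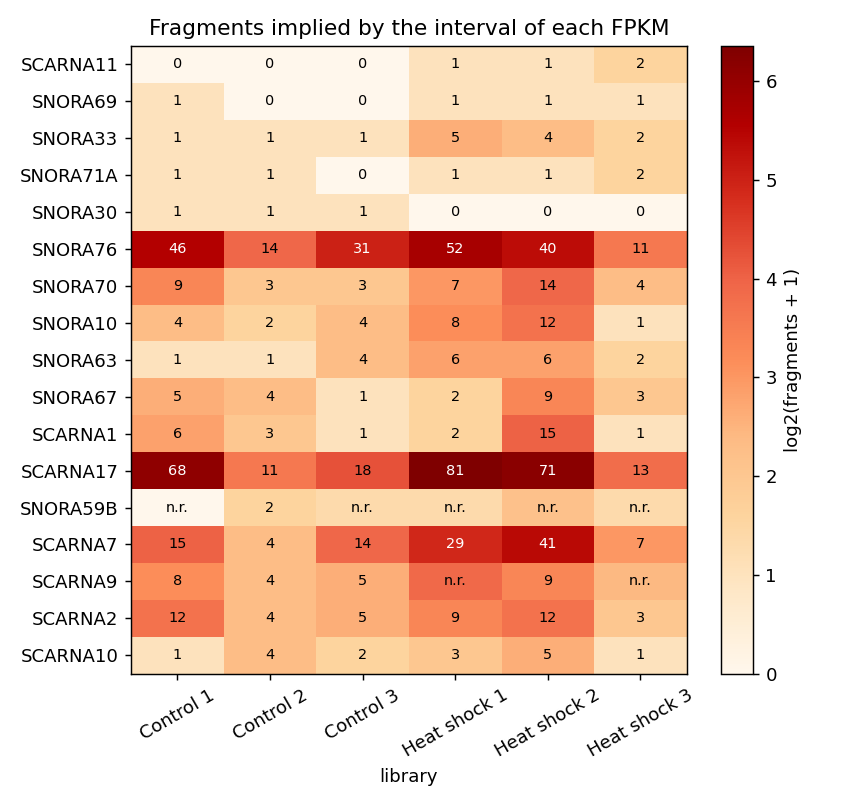
Fragments (numbers in the cells, colour as log2(fragments + 1)) behind the FPKM of the same 17 members (rows) in the 6 libraries (columns), where n.r. marks a value from which no whole number was recovered. The 5 members without overlap between the groups rest on 0 to 5 fragments per library, whereas SNORA76 rests on 11 to 52 and SCARNA17 on 11 to 81.

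The identical genes SNORA59A and SNORA59B were given the same value in most libraries. Each had 14.2 FPKM in control replicate 3 and 11.5, 25.4 and 9.09 FPKM in heat shock libraries 1 to 3, so that in these 4 libraries the pair received equal values. In control replicate 2 they had 0 and 10.4 FPKM. In control replicate 1 they had 16.2 and 2.0, where the value of SNORA59B came from another assembled transcript and its annotated transcript had none. The level of each gene by itself is uncertain, and the same holds for SNORA7A, at 0 in every library, and SNORA7B, at 19.9 FPKM in heat shock replicate 2 only.

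As a set, the members tested had a median log2 fold change of 0.72, with 72 above 0 and 26 below. Among them were members at 0 throughout 1 group, whose sign was set by the group through which they passed the minimum level. Over all genes tested the median was 0.45, with 9505 above 0 and 3520 below, so the direction of the set was also that of the libraries as a whole. The median was 0.89 over the 79 H/ACA snoRNAs, 0.50 over the 19 scaRNAs and 0.94 over the 26 box C/D snoRNAs that reached the minimum level. With the size factors over abundant genes the median of the members was 0.13 and that of all genes -0.24.

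Hosts were set beside their members. Of the 87 host genes tested none was called in limma. With more than 2-fold at p under 0.05 before adjustment, 3 of the 87 lay higher and 0 lower, against 2.06% and 1.6% of all genes tested. The median log2 fold change of the hosts was 0.79. In 56 of 88 pairs of a member and its host the changes had the same sign. Since 77 of the 87 hosts and 72 of the 98 members tested lay above 0, a shared sign is frequent without any link between member and host. Across the pairs Spearman's rho of the changes was 0.16 (88 pairs in 71 hosts, which share their libraries), and that of the mean levels 0.35 (119 pairs). These are descriptions over genes, which are not independent replicates.

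**Figure D5:**
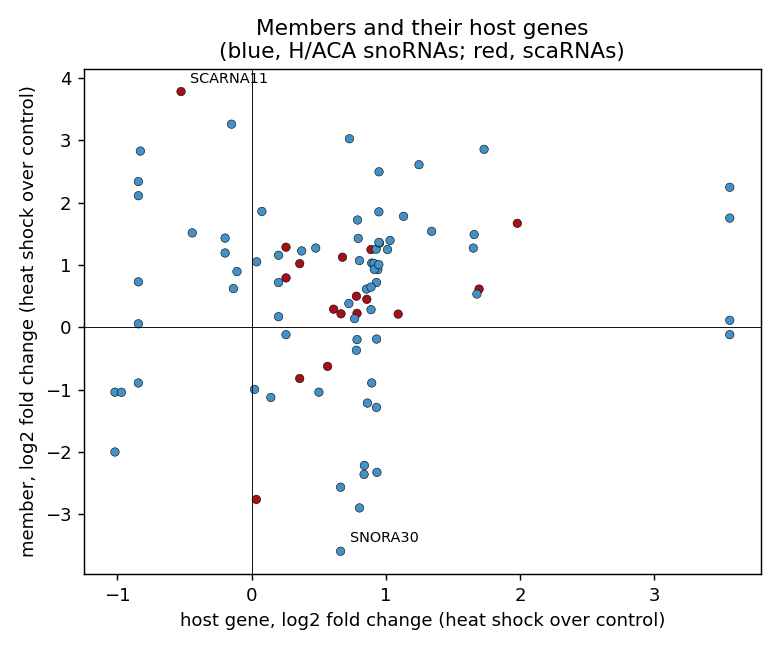
Log2 fold change of each member (y axis) against that of its host gene (x axis), heat shock over control on the log2(FPKM + 1) scale, for 88 pairs, with H/ACA snoRNAs in blue and scaRNAs in red. The members scatter from -3.59 (SNORA30) to 3.78 (SCARNA11) around hosts that mostly lie between 0 and 1.

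Of the 17 members inside ribosomal protein genes, 15 were tested, 12 with a log2 fold change above 0 and 3 below, from -2.33 (SNORA65, in RPL12) to 2.85 (SNORA66, in RPL5). The 6 members of TAF1D also differed among themselves: SNORA8 was at 19.2, 28.6 and 0 FPKM in the controls against 31.7, 89.7 and 25 after heat shock, while SNORA25 was at 0 in every library. TAF1D itself had 8.56, 3.58 and 37.9 FPKM in the controls against 15.5, 16.8 and 0 after heat shock. Control replicate 3, in which TAF1D was highest, listed none of its 6 snoRNAs.

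The pathway was examined as a list of 28 genes, made up of proteins that bind, mature or degrade these RNAs, core proteins of the box C/D particle for comparison, and telomerase with its RNA TERC, all of which were in the assemblies and 25 of which reached the minimum level. None was called in limma in either direction, and none passed an unadjusted p under 0.05 with more than 2-fold. Their median log2 fold change was 0.72, with 22 above 0 and 3 below. Of the core proteins of the H/ACA particle, 3 shared an order of libraries. NHP2 had 136, 65.2 and 127 FPKM in the controls against 283, 331 and 64.6 after heat shock, NOP10 had 63.6, 27.8 and 64.1 and then 147, 151 and 26.8, and GAR1 had 8.74, 5.16 and 7.21 and then 18.8, 24.0 and 4.54. In all 3 genes heat shock replicates 1 and 2 were above the controls and replicate 3 was not.

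DKC1, the gene of dyskerin, which is the pseudouridine synthase itself, had 10.9, 1.62 and 15.2 FPKM in the controls against 6.18, 25.8 and 0.746 after heat shock, with a log2 fold change of -0.20 (SE 0.96). NAF1, which helps to assemble the particle, had 3.40, 1.25 and 1.39 FPKM in the controls against 8.26, 7.76 and 1.67 after heat shock, and a log2 fold change of 1.06 (SE 0.58). TENT4B, also known as PAPD5, a polymerase that adds tails to such RNAs before trimming, was the only gene of the list without overlap, at 1.38, 1.21 and 1.20 FPKM against 2.95, 3.46 and 1.70 (log2 fold change 0.68, SE 0.44). This was 4% of the 25 genes tested, near the 3.71% over all genes.

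FBL, the methyltransferase of the box C/D particle, had the widest range in absolute FPKM, at 162, 77.3 and 204 FPKM in the controls against 1491, 1756 and 81.8 after heat shock, with a log2 fold change of 2.12 (SE 1.17, limma adjusted p = 0.71). TERC, the RNA of telomerase, ends in an H/ACA domain of its own and was not a member by name. It had 171, 41.7 and 110 FPKM in the controls against 285, 215 and 59.4 after heat shock, so that replicate 3 of the heat shock group again lay among the controls. XRN1, a nuclease, was listed at 0 in all 6 libraries, and WRAP53 and SMN1, which act in the Cajal body, in 4 and 3 of them. A 0 for such widely used genes can be a failed estimate.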

How the data were processed

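Reads were trimmed (Trimmomatic 0.3.0), mapped to hg19 (TopHat2) and assembled per library (Cufflinks 2.0.2) by the authors. The deposited values are FPKM per transcript, scaled by the authors to length and mapped fragments, with an interval, and the table made by cuffdiff also holds pooled FPKM, ratios and p-values, of which only the authors' pooled FPKM was used. Per library, FPKM was summed over the transcripts of a gene (named through RefSeq). Genes whose mean reached 1 FPKM entered limma 3.58.1 (R 4.3.3) on log2(FPKM + 1) with a trend, over all 13025 genes, heat shock against control. The fit was also run on simulated log values with a small spread and large changes. These did not have the steps of single fragments, so they do not test the calls reported here. Hosts came from GENCODE release 44 on GRCh37. The total depth is unknown, and only relative depth was recovered. Intervals cover counting error only, and a floor covers it in the group at 0 alone.

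Members and lists were chosen with earlier results of these data known. Named members were those called, the 12 highest above 0 in all libraries, up to 8 each way without overlap between groups, all scaRNAs and the 3 shortest and longest, with their hosts, and the pathway list. Alternatives were another pseudocount, 2 kinds of size factors, TPM, 2 other minimum levels, no trend, unadjusted p, a replicate block, a term for libraries rich in transcripts without a strand, annotated transcripts alone and leaving out each library. Adding single-exon assembled transcripts that covered at least 50% of a member was chosen after seeing the data.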

Additional observations from a re-analysis of the deposited data

How the results depend on the processing

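The count of members called higher, 1 as reported, became 0 with median-of-ratios size factors, with size factors over abundant genes, with TPM, with no minimum, with a minimum of 10 FPKM (which neither called member reached), without a trend and with annotated transcripts alone, and 11 with the unadjusted p. It was 0 to 4 when each library was left out. The count called lower, also 1, became 0 under the same settings except TPM and 7 with the unadjusted p, and was 0 to 4 when each library was left out; both were 0 without control replicate 2. Without control replicate 1, 3 were higher; without heat shock replicate 1, 2 were higher and 4 lower; without heat shock replicate 2, 3 were lower; without heat shock replicate 3, 4 were higher. Over 16 alternatives that gave a value, the call of SCARNA11 was lost in 7 (adjusted p from 5.4e-05 to 0.910) and that of SNORA30 in 6 (0.000115 to 0.330), and neither changed its direction. With the replicate number as a block, 4 were called higher and 2 lower, all of them at 0 throughout 1 group. The deviations of same-numbered libraries from their group means correlated at 0.027, -0.33 and -0.38, and not every library correlated best with its own number. Control replicate 2 and heat shock replicate 3, both low in size factor, correlated at 0.44. The deviations were not scaled between libraries, so they cannot show whether same-numbered libraries were handled together. The median log2 fold change of the members was 0.13 with size factors over abundant genes, and otherwise stayed within the spread between replicates. The count of pathway genes called was 0 throughout.

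Of 282 single values of the 16 members recomputed, 22 in 6 members reversed. With size factors over abundant genes SCARNA1 became -0.40, SCARNA2 -0.38, SCARNA9 -0.066, SNORA10 -0.15, SNORA67 -0.20 and SNORA76 -0.62. With TPM SCARNA1 became -0.31, SCARNA2 -0.38, SNORA10 -0.033, SNORA67 -0.084 and SNORA76 -0.50. With median-of-ratios factors SCARNA2 became -0.069 and SNORA76 -0.19, and with the strand term SCARNA2 -0.0051, SNORA10 -0.093 and SNORA76 -0.34. Without control replicate 2 SNORA76 became -0.34 and SCARNA2 -0.0031, without heat shock replicate 1 SNORA76 -0.25, and without heat shock replicate 2 SNORA76 -0.02, SCARNA1 -0.65 and SCARNA2 -0.025. Over the libraries left out, the range was -0.65 to 1.29 for SCARNA1, -0.025 to 0.73 for SCARNA2 and -0.34 to 1.03 for SNORA76. The cause was not tested. Most member values rest on at most 3 fragments.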
